A study of Homo sapiens with 24 samples.

Results

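The carnitine shuttle carries fatty acids into mitochondria, and its transcripts were followed in MB468 cells and their MB468res-R8 derivative (R8) while methionine (Met) was replaced by homocysteine (Hcy), its metabolic precursor. The 6 genes described, SLC22A5, CPT1A, SLC25A20, CPT2, CRAT, and CROT, were chosen by symbol as the transporters and acyltransferases of the shuttle, and they are 6 of the 26645 gene entries in the count table. All 6 passed the filter on low counts that left 14741 genes for testing. MB468 is the MDA-MB-468 triple negative breast cancer line, which stops growing when Met is replaced by Hcy. R8 was isolated from it as a Met-independent line by long culture in Hcy medium and goes on growing there, so each side of the comparison is a single cell line. Both lines were grown in DMEM with dialyzed serum, vitamin B12, glutamine, and cysteine. Cells at 0 h were in Met+ medium with 100 µM Met, and cells at 0.5, 2, and 12 h had been moved to Met-Hcy+ medium with 370 µM Hcy and 0 µM Met. Each of the 8 groups had 3 libraries of poly(A) RNA. Met+ cells were sampled only at 0 h, and the effects of the medium and of the hours that passed cannot be told apart.

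Long-chain fatty acids cross the inner mitochondrial membrane only as carnitine esters. SLC22A5 (OCTN2) brings carnitine into the cell, CPT1A on the outer mitochondrial membrane moves the acyl group from CoA to carnitine, SLC25A20 exchanges acylcarnitine for free carnitine across the inner membrane, and CPT2 returns the acyl group to CoA inside for beta-oxidation. CPT1A is the controlled step and is inhibited by malonyl-CoA, the building block of fatty acid synthesis. CRAT does the same chemistry on acetyl and other short chains and buffers the acetyl-CoA pool, and CROT prepares medium-chain products of peroxisomal oxidation for export. Carnitine itself is made from trimethyllysine, whose methyl groups come from S-adenosylmethionine and so from Met, and it is also taken up from the medium.

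The depth was 11745553 to 36496655 counts in a library (median 20503827). Values below are normalized counts, which are raw counts scaled to a common library size, and a gene is called higher or lower at an adjusted p under 0.05 in edgeR's quasi-likelihood test over all 14741 genes. The labels do not say that the 3 libraries of a group came from separate cultures, and p-values measure the spread between these libraries. The epithelial and basal markers EPCAM, CDH1, KRT8, KRT18, KRT5, and EGFR were high in every library, from 5803 for CDH1 upward. Of 3 receptors that are low in triple negative cells, PGR did not exceed 2.24, ESR1 lay between 94.5 and 513, and ERBB2 lay between 872 and 2214. ESR1 was lower in R8 than in MB468 at 0 h by 0.82 on the log2 scale (adjusted p = 3.49e-09). Among 5 markers of other cell types, PTPRC and ALB reached 4.53 and 9.72 at most. PECAM1 lay between 7.82 and 60.8, CD68 between 64.8 and 228, and COL1A1 between 331 and 1665. COL1A1, PECAM1, and CD68 were called higher in R8 than in MB468 at 0 h, by 0.97, 0.70, and 0.60 on the log2 scale. From 0 to 12 h, CD68 rose in R8 (0.75, adjusted p = 1.08e-05) and COL1A1 fell (-0.98, adjusted p = 5.9e-12). In MB468, PECAM1 rose (0.83, adjusted p = 0.00845) and COL1A1 fell (-1.18, adjusted p = 2.49e-13). The summed level of these 5 markers was 868 to 885 in MB468 and 1374 to 1849 in R8 at 0 h, and 462 to 483 in MB468 and 925 to 1144 in R8 at 12 h, and its part in the results was not tested. One library, MB468 at 2 h replicate 2, stood apart in 4 RNAs that lack a poly(A) tail, with a summed level of 36880 against 145 to 673 in the other 23.

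The shuttle did not move as a block. At 12 h in MB468, CRAT, CPT1A, and SLC25A20 fell, SLC22A5 rose, and CPT2 and CROT were not called, so 4 of 6 genes changed where 70.8% of all tested genes did (36.1% higher and 34.7% lower). At the same time in R8, CRAT and CPT2 fell and CROT rose, 3 of 6 against 61.3% of all genes (30.2% higher and 31.1% lower), while CPT1A, SLC25A20, and SLC22A5 stayed within 0.1 of their starting level on the log2 scale. Earlier changes were few. In MB468, 1 gene was called at 0.5 h (CROT, higher) and 1 at 2 h (SLC22A5, higher), against 33.9% and 16.3% of all genes. In R8, 1 was called at 0.5 h (CPT1A, lower) and 0 at 2 h, against 33.7% and 4.37% of all genes, and for none of the 6 was the unadjusted p under 0.05 in R8 at 2 h. DESeq2's Wald test also called 0 of the 6 there. The 3 responses of a line share its 0 h libraries. In bulk RNA, fewer cells expressing a gene and less of its RNA per cell cannot be told apart.

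**Figure D1:**
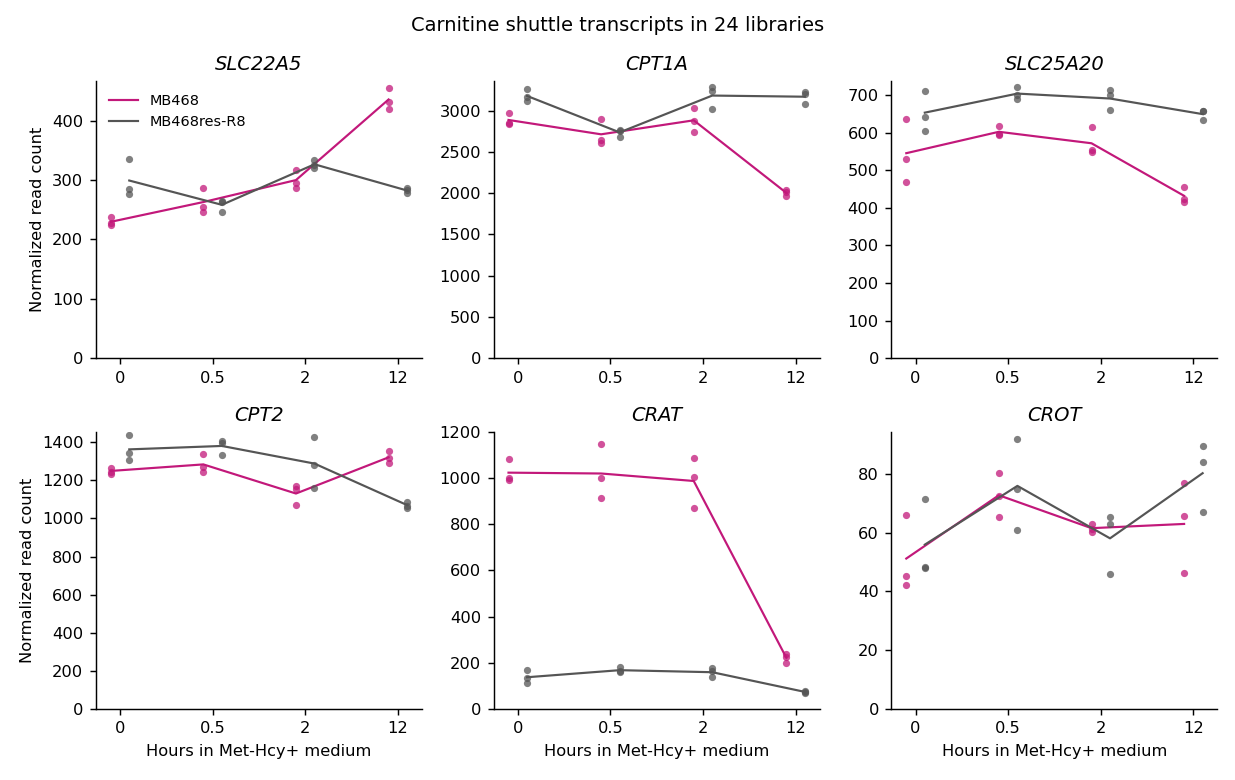
Normalized read counts of the 6 genes (vertical axes, from 0) against the 4 sampling times in both lines. Points are libraries, 3 per group, and lines join the group means. CRAT in MB468 drops from 1024 to 222 between 0 and 12 h and is at most 182 in R8 libraries, SLC22A5 climbs to 436 in MB468 and is 282 in R8 at 12 h, and the CROT points spread widely in both lines.

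SLC22A5, the carnitine importer, was the only 1 of the 6 transcripts called higher in MB468 at 12 h. Carnitine import itself was not measured. The transcript of another carnitine transporter, SLC6A14, was called higher at 2 h and lower at 12 h in MB468 (given below). SLC22A5 lies on chromosome 5 (GRCh38, chr5:132369710-132395613, forward strand, 10 exons in its canonical transcript). Its exons share 327 bases with MIR3936HG, a lncRNA on the opposite strand. The library kit does not keep the strand, and MIR3936HG was not examined. The 3 MB468 libraries held 227, 238, and 223 normalized counts of SLC22A5 at 0 h and 432, 420, and 455 at 12 h. All libraries at 12 h lay above all at 0 h, and the level was 1.89-fold higher (log2 fold change 0.92 ± 0.08 SE, adjusted p = 1.19e-12). The rise was already called at 2 h, when the libraries held 287, 295, and 317 (log2 fold change 0.38 ± 0.09, adjusted p = 0.00219). Without replicate 2 of that group, the library rich in RNAs without a tail, the 2 h value was 0.39, and with spike-in totals as library sizes it turned to -0.0417 and was not called. At 0.5 h the libraries held 255, 287, and 246, above every 0 h library, and the log2 fold change was 0.20 (adjusted p = 0.0944).

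In R8 the importer began higher and was not called at any later time. The R8 libraries held 335, 285, and 277 at 0 h, all above MB468 (log2 difference 0.39 ± 0.09, adjusted p = 0.00031), a call lost with spike-in totals (0.0744, adjusted p = 0.716). They held 263.5, 246, and 265 at 0.5 h, all below every 0 h library, and the log2 fold change of -0.22 missed the threshold (adjusted p = 0.0513). It was called lower with DESeq2's size factors (adjusted p = 0.036), DESeq2's Wald test (0.0475), a spike-in covariate (0.048), and a filter of at least 10 counts in every library (0.0313). The R8 libraries held 283, 286, and 278 at 12 h, all inside the range of the 0 h libraries (log2 fold change -0.09, 95% confidence interval -0.27 to 0.08, adjusted p = 0.365). The order of the lines was therefore inverted by 12 h, with R8 below MB468 by 0.63 on the log2 scale (SE 0.08, adjusted p = 9.75e-09). Over the 8 groups SLC22A5 was highest in MB468 at 12 h (436 ± 18, SD, n = 3), clear of R8 at 2 h (326 ± 6.95), and lowest in MB468 at 0 h (230 ± 7.73). The other 5 groups lay between them, and each overlapped a neighbour in that order.

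CPT1A, the malonyl-CoA-sensitive entry enzyme, fell in MB468 at 12 h and was not called in R8 at that time. It lies on the reverse strand of chromosome 11 (chr11:68754620-68844410, 19 exons). MB468 libraries held 2842, 2974, and 2844 normalized counts at 0 h and 2036, 1964, and 2009 at 12 h. The groups did not overlap, and the 12 h level was 0.694 of the 0 h level (log2 fold change -0.53 ± 0.04, adjusted p = 9.87e-14). R8 libraries held 3159, 3115, and 3260 at 0 h and 3196, 3223, and 3086 at 12 h. These ranges overlapped, and the log2 fold change of -0.00 had a 95% confidence interval of -0.09 to 0.08 (adjusted p = 0.942). At 0.5 h, R8 libraries had dipped to 2758, 2764, and 2686, all below every 0 h library (log2 fold change -0.22 ± 0.04, adjusted p = 0.000137), and at 2 h they were back at 3292, 3016, and 3239. The dip lost its call with spike-in totals (-0.171, adjusted p = 0.487). The MB468 change at 0.5 h was -0.10 (adjusted p = 0.0942). That change was called lower with DESeq2's Wald test (-0.112, adjusted p = 0.0453) and with at least 10 counts in every library (-0.11, adjusted p = 0.0487). It was also called without MB468 replicate 3 at 0.5 h. The test of the difference between the lines at 0.5 h gave -0.12 (adjusted p = 0.432).

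CPT1A was slightly higher in R8 before the switch, by 0.14 on the log2 scale (adjusted p = 0.00805), a value that turned to -0.169 (adjusted p = 0.268) with spike-in totals and was no longer called without MB468 replicate 3 at 0 h. At 12 h R8 exceeded MB468 1.58-fold (log2 difference 0.66 ± 0.04, adjusted p = 7.37e-17). MB468 at 12 h (2003 ± 36.3, SD, n = 3) was the lowest group and did not overlap the next, MB468 at 0.5 h (2713 ± 157). The R8 groups at 2, 0, and 12 h were the highest and overlapped one another.

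SLC25A20, the inner-membrane exchanger, fell in MB468 at 12 h by less than CPT1A and was not called in R8 at any time. The gene is on chromosome 3 (chr3:48856926-48898904, reverse strand, 9 exons). MB468 libraries held 530, 637, and 469 normalized counts at 0 h and 416, 425, and 456 at 12 h. The 0 h libraries were widely spread, yet each lay above every 12 h library (log2 fold change -0.35 ± 0.08, adjusted p = 0.000142). R8 libraries held 643, 605, and 713 at 0 h and 633, 658, and 658 at 12 h, the later values lying inside the earlier range (log2 fold change -0.01, 95% confidence interval -0.16 to 0.15, adjusted p = 0.951). R8 was above MB468 at 0.5, 2, and 12 h with no overlap between libraries, by 0.22, 0.26, and 0.59 on the log2 scale (adjusted p = 0.016, 0.00482, and 9.99e-09). With spike-in totals the first 2 calls were lost, at differences of 0.173 (adjusted p = 0.418) and 0.341 (adjusted p = 0.052), and the 0.5 h call was lost without MB468 replicate 1 as well. The difference at 0 h was 0.24 (adjusted p = 0.00793) with overlapping libraries. It lost its call without replicate 3 of either line, and with spike-in totals it turned to -0.0495 (adjusted p = 0.789).

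The sequences before the starts of SLC22A5, CPT1A, and SLC25A20 are shown because these 3 genes responded in MB468 and held level in R8 at 12 h, with SLC22A5 going the other way from the pair. RefSeq promoter entries (GRCh38.p14) were found for 5 of the 6 genes and not for CRAT. Each run gives the 250 bases before the RefSeq start, 5′ to 3′ on the gene's strand, at chr5:132369460-132369709 (+), chr11:68844278-68844527 (-), and chr3:48898883-48899132 (-). For CPT1A and SLC25A20 the RefSeq start lies inside the GENCODE gene span given above, so part of each window lies within that span. The same holds for the CPT2 window, whose matches are counted below. Capitals mark matches to 6 motifs searched on both strands.
SLC22A5: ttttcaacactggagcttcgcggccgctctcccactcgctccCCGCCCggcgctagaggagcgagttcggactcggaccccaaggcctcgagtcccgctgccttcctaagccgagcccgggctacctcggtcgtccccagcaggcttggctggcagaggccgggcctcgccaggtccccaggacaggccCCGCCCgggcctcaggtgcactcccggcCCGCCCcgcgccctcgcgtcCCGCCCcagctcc
CPT1A: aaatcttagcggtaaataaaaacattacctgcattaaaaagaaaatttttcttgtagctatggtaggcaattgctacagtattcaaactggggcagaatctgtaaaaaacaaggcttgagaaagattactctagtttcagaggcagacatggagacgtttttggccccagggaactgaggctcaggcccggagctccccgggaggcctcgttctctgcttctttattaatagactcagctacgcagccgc
SLC25A20: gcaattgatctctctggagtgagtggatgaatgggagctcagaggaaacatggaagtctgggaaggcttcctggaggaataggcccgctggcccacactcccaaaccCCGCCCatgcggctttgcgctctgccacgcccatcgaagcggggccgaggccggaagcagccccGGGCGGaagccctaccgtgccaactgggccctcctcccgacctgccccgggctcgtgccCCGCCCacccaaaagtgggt
The motifs were GGGCGG (a GC box), CCAAT (the CCAAT box), CACGTG (an E-box), AGGTCA (a nuclear receptor half-site), a direct repeat of AGGTCA with any 1 base between its copies (the element read by PPAR and RXR pairs, which holds AGGTCA within it), and TGATGNAA (the composite element of C/EBP and ATF factors). GGGCGG, read as CCGCCC on the other strand, had 4 matches before SLC22A5, 3 before SLC25A20, 3 before CPT2, and 3 before CROT, and is found in 42.3% of 27305 promoters of the same length. CPT1A held 0 matches to any of the 6. CCAAT, present in 33% of promoters, matched once, before CROT. None of the 5 windows held CACGTG (found in 6.49% of promoters), AGGTCA (in 12.1%), TGATGNAA (in 3.19%), or the direct repeat (in 0.0183%). The bases G and C made up 74% of the SLC22A5 window and 66% of the SLC25A20 window, and 44.4% of the CPT1A window, against a median of 58%. A letter match describes these windows only.

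CPT2, which completes the transfer inside the mitochondrion, fell in R8 at 12 h and was not called in MB468. It lies on chromosome 1 (chr1:53196792-53214197, forward strand, 5 exons). R8 libraries held 1307, 1437, and 1345 normalized counts at 0 h and 1066, 1088, and 1057 at 12 h. No 12 h library reached a 0 h library, and the level was 0.786 of the starting one (log2 fold change -0.35 ± 0.06, adjusted p = 1.25e-06). MB468 libraries held 1267, 1236, and 1246 at 0 h and 1291, 1318, and 1354 at 12 h. The later MB468 libraries were all the higher, but the log2 fold change of 0.08 was not called (95% confidence interval -0.03 to 0.19, adjusted p = 0.192). R8 was below MB468 at 12 h by 0.30 on the log2 scale (adjusted p = 5.87e-06). At 2 h it had been above by 0.18 (adjusted p = 0.00872) with overlapping libraries, a call that was lost without MB468 replicate 2 or R8 replicate 3 at 2 h, with spike-in totals (0.246, adjusted p = 0.151), and with the spike-in covariate (0.134, adjusted p = 0.0872). At 0 h the difference of 0.12 was not called (adjusted p = 0.0598), though it was with the spike-in covariate (0.135, adjusted p = 0.0406). The exons of CPT2 share 1250 bases with genes of the opposite strand, CZIB and a lncRNA, and the library kit does not keep the strand. CZIB, listed under its older symbol C1orf123, differed between the lines at 0 h by 0.01 (adjusted p = 0.901). CZIB was not examined at 12 h, where CPT2 fell in R8, and the lncRNA was not examined.

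CRAT, the short-chain transferase, gave the widest range of the 6 genes. It is on the reverse strand of chromosome 9 (chr9:129094142-129111189, 14 exons). In Met+ medium the MB468 libraries held 991, 1000, and 1082 normalized counts and the R8 libraries 134, 167, and 110, resting on 84 to 169 raw reads. The lines were far apart, with R8 at 0.135 of the MB468 level and a log2 difference of -2.89. Among 14741 genes ordered by this difference, CRAT stood at place 142 from the lowest. It was singled out with this value known, so the baseline difference is given as a description with no test. The study also listed CRAT for its fall in MB468 at 12 h, from these same libraries. The values at the other times are not independent evidence of its direction.

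In MB468, CRAT was not called at 0.5 or 2 h and had fallen by 12 h. Libraries held 999, 914, and 1148 at 0.5 h, 1089, 1005, and 870 at 2 h, and 227, 200, and 238 at 12 h. The early libraries overlapped those at 0 h, with log2 fold changes of -0.01 (adjusted p = 0.943) and -0.05 (adjusted p = 0.788). With spike-in totals the 2 h value was called lower (-0.467, adjusted p = 0.00334), while the median of all genes moved to -0.415. The 12 h level was 0.219 of the 0 h level (log2 fold change -2.19 ± 0.10, adjusted p = 1.59e-21), place 141 from the lowest of all genes tested. The study listed this fall from the same libraries, so the values here are no independent evidence of it.

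In R8, the same transcript fell from a level that was already low. Libraries held 159, 182, and 162 at 0.5 h, 163, 175, and 137 at 2 h, and 76.9, 74.0, and 68.9 at 12 h, the last on 65 to 86 raw reads. The 12 h libraries lay below all others, at 0.533 of the 0 h level (log2 fold change -0.91 ± 0.15, adjusted p = 1.33e-06). The changes at 0.5 and 2 h were 0.28 (adjusted p = 0.0938) and 0.23 (adjusted p = 0.448), with overlapping libraries. MB468 at 12 h (222 ± 19.9, SD, n = 3) was still above every R8 group, the next being R8 at 0.5 h (168 ± 12.3). The gap between the lines at 12 h was -1.61 (SE 0.13, adjusted p = 9.21e-14), narrower than at 0 h. The narrowing itself is not tested by that p-value. Both the fall in R8 and the narrowing are measured from 0 h values that were known when CRAT was singled out.

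The baseline gap at CRAT was not shared by the genes around it. The 10 nearest tested genes with a RefSeq position, 5 on each side and within 536 kb, differed between the lines at 0 h by -0.26 to 0.28 on the log2 scale with a median of -0.07, and 3 were called higher and 3 lower, against 53.5% of all genes called in either direction. Of these 10, DOLPP1 was the closest by midpoint and differed by -0.26 (adjusted p = 0.000688). IER5L, the closest of them on the other side, differed by -0.10 (adjusted p = 0.753). The exons of CRAT share 268 bases with PTPA and a lncRNA on the opposite strand. PTPA, listed as PPP2R4 and not among the 10 neighbours, differed by -0.07 (adjusted p = 0.156). The lncRNA was not examined, nor was PTPA at later times.

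**Figure D2:**
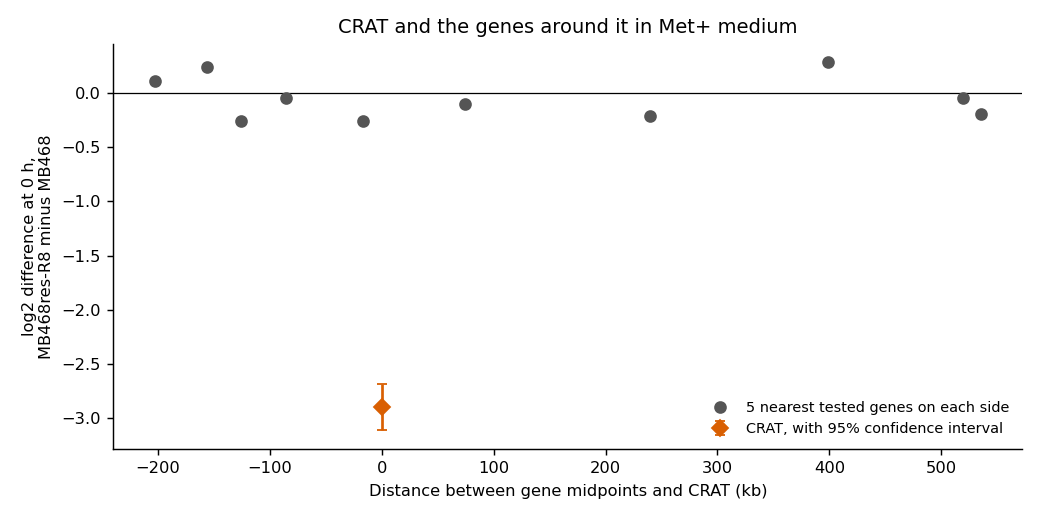
log2 difference at 0 h, R8 minus MB468 (vertical axis), against the distance between gene midpoints and CRAT in kb (horizontal axis). The diamond is CRAT at -2.89 with its 95% confidence interval. The circles are its 10 nearest tested genes with a RefSeq position, which lie between -0.26 and 0.28. The interval is no test, since CRAT was singled out with this value known.

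CROT, the peroxisomal medium-chain transferase, was the scarcest of the 6, with 31 to 126 raw reads per library, and its calls were lost under several alternatives. The gene is on chromosome 7 (chr7:87345664-87399794, forward strand, 18 exons). R8 libraries held 71.4, 48.1, and 48.4 normalized counts at 0 h and 84.1, 67.2, and 89.7 at 12 h. The groups overlapped, the log2 fold change was 0.50 ± 0.21 (adjusted p = 0.0352), and the call was lost with spike-in totals (log2 fold change 0.513, adjusted p = 0.0685) and without replicate 2 or 3 at 0 h or replicate 1 or 3 at 12 h (log2 fold changes of 0.395, 0.409, 0.492, and 0.438). MB468 libraries held 42.2, 45.4, and 66.1 at 0 h and 80.3, 72.6, and 65.4 at 0.5 h, overlapping at 1 library (log2 fold change 0.56 ± 0.22, adjusted p = 0.0412). DESeq2 gave an adjusted p of 0.0617 for that change and the replicate block 0.0525, and it was lost with spike-in totals (0.353, adjusted p = 0.288) and without replicate 1 or 2 of either group (log2 fold changes of 0.434 to 0.559). The lines did not differ by a called amount at any time, and the largest estimate was 0.36 at 12 h (95% confidence interval -0.05 to 0.76, adjusted p = 0.104). All 8 groups overlapped their neighbours in the order of means, from 51.2 ± 13 (SD, n = 3) in MB468 at 0 h to 80.3 ± 11.7 in R8 at 12 h.

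**Figure D3:**
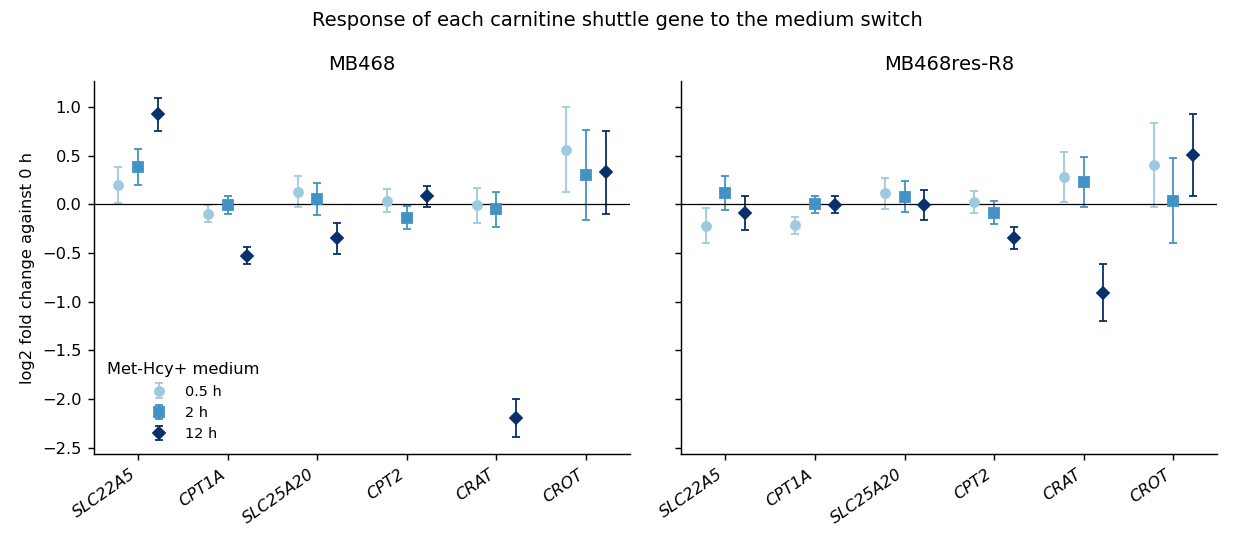
log2 fold change of each gene against 0 h (vertical axis) at 0.5, 2, and 12 h in MB468 (left) and R8 (right), with 95% confidence intervals from the edgeR fit. At 12 h SLC22A5 is at 0.92 in MB468 and -0.09 in R8, CPT1A at -0.53 and -0.00, and CRAT at -2.19 and -0.91.

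Whether the lines responded differently was tested directly, as the R8 response minus the MB468 response. At 12 h, 5 of 6 genes were called, against 56.5% of all genes. The difference was -1.01 for SLC22A5 (SE 0.12, adjusted p = 2.49e-09), 0.52 for CPT1A (SE 0.06, adjusted p = 2.22e-09), and 0.34 for SLC25A20 (SE 0.11, adjusted p = 0.00733). Each of these 3 genes moved in MB468 and was near its starting level in R8. It was -0.43 for CPT2 (SE 0.08, adjusted p = 1.22e-05), which fell in R8, and 1.29 for CRAT (SE 0.18, adjusted p = 9.56e-08), which fell more in MB468. For CROT it was 0.17 (95% confidence interval -0.43 to 0.77, adjusted p = 0.646). The CRAT difference includes the 0 h values that were known when CRAT was singled out. The CPT2 difference was -0.168 (adjusted p = 0.506) with spike-in totals, and the SLC25A20 difference lost its call without MB468 replicate 2 at 0 h. At 0.5 and 2 h edgeR called 0 of 6 differences, against 2.9% and 5.07% of all genes, and DESeq2 called 0 of 6 at both times. With spike-in totals the 2 h difference was called for CRAT (0.656, adjusted p = 0.045), where the median of all genes moved to 0.377. The unadjusted p was under 0.05 for SLC22A5 at both times, with differences of -0.42 (adjusted p = 0.0673) and -0.27 (adjusted p = 0.281).

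As differences between the lines at each time, edgeR called 3 of the 5 genes other than CRAT at 0 h. Of all 6 genes it called 2 at 0.5 h, 4 at 2 h, and 5 at 12 h, CRAT among them each time. The shares of all genes called at 0, 0.5, 2, and 12 h were 53.5%, 49%, 56.1%, and 73.1%. At 12 h the 2 genes higher in R8 were CPT1A and SLC25A20, and the 3 lower were SLC22A5, CPT2, and CRAT, where 33.9% of all genes were higher and 39.2% lower. The median log2 difference over the 6 genes was 0.03 at 12 h, beside -0.06 over all genes tested.

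Since longer transcripts collect more reads, levels of different genes were compared per kilobase of the GENCODE canonical transcript. In MB468 at 0 h the order was CPT1A (551 ± 14.4 normalized counts per kb, SD, n = 3), CPT2 (463 ± 5.86), CRAT (370 ± 18.2), SLC25A20 (307 ± 47.8), SLC22A5 (70.0 ± 2.36), and CROT (16.0 ± 4.04). By 12 h CPT2 (489 ± 11.7) had passed CPT1A (382 ± 6.94), and SLC22A5 (133 ± 5.48) had passed CRAT (80.0 ± 7.18). In R8 the order at 0 h was CPT1A (607 ± 14.2), CPT2 (505 ± 24.8), SLC25A20 (368 ± 30.6), SLC22A5 (91.3 ± 9.5), CRAT (49.4 ± 10.3), and CROT (17.5 ± 4.17), and the order was the same at 12 h, with CRAT (26.5 ± 1.46) beside CROT (25.1 ± 3.65).

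The make-up of the 4 acyltransferase transcripts differed between the lines and shifted in each. Per kilobase, CRAT made up 26.4 ± 1.03% (SD, n = 3) of their sum in MB468 at 0 h and 8.23 ± 0.617% at 12 h, and 4.19 ± 0.817% and 2.51 ± 0.107% in R8. CPT2 took 33.1 ± 0.752% and then 50.4 ± 1.06% in MB468, while in R8 it went from 42.8 ± 1.29% to 37.7 ± 0.324%. The CPT1A share was 39.4% in MB468 at both times and moved from 51.5 ± 1.81% to 57.4 ± 0.387% in R8. These shares describe the libraries and assume the same transcript form in every group.

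**Figure D4:**
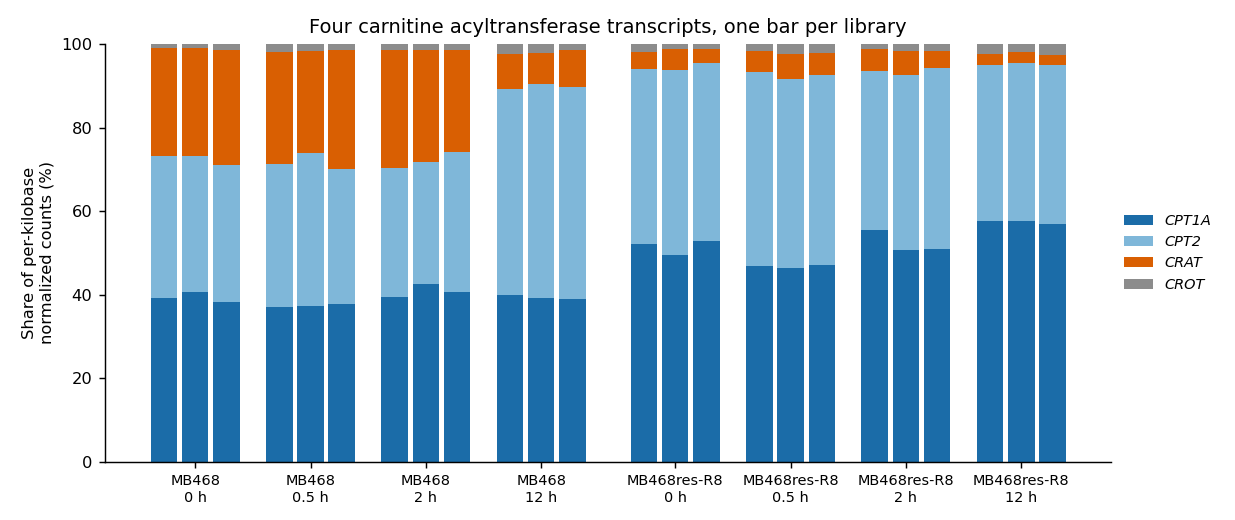
Share of each of the 4 acyltransferase transcripts in their summed normalized counts per kilobase (vertical axis, percent), with 1 stacked bar for each of the 24 libraries, grouped by line and time. CRAT is 24.4% or more of each MB468 bar up to 2 h and 7.54 to 8.73% at 12 h, and 2.41 to 5.75% in R8.

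Ratios of raw counts within a library do not depend on the scaling, and 3 were taken after the values had been seen. SLC22A5 over CPT1A was 0.0799, 0.0801, and 0.0786 in MB468 at 0 h and 0.212, 0.214, and 0.226 at 12 h, with no overlap. In R8 the ratio was 0.106, 0.0916, and 0.085 at 0 h and 0.0887, 0.0887, and 0.0899 at 12 h, where the ranges overlapped. CPT1A over CPT2 went opposite ways, from 2.24, 2.41, and 2.28 to 1.58, 1.49, and 1.48 in MB468 and from 2.42, 2.17, and 2.42 to 3, 2.96, and 2.92 in R8. CRAT over CPT2 went from 0.782, 0.809, and 0.868 to 0.176, 0.151, and 0.176 in MB468 and from 0.103, 0.116, and 0.0816 to 0.0721, 0.0681, and 0.0652 in R8, lower at 12 h in every library of both lines.

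Beyond the shuttle, most genes of mitochondrial fatty acid oxidation fell in MB468 at 12 h. The lists used here were written by hand with earlier results of these data known. Of 16 mitochondrial beta-oxidation genes, 14 fell, 0 rose, and 2 were not called in MB468 at 12 h, where 34.7% of all genes were called lower, with a median log2 fold change of -0.46 beside 0.01 over all genes. The largest falls were those of ACADS, the short-chain acyl-CoA dehydrogenase (-1.40, adjusted p = 5.28e-13), ECI2, an enoyl-CoA isomerase (-1.03, adjusted p = 1.11e-11), and ACADM, the medium-chain dehydrogenase (-1.02, adjusted p = 4.19e-21). The study listed ACADS, ECI2, and ACADM as lower in MB468 at 12 h from these same libraries. In R8, 9 of the 16 fell and 0 rose, where 31.1% of all genes were called lower, with a median of -0.17, and 4 fell with spike-in totals. There ACADS changed by -0.57 (adjusted p = 6.65e-05) and ACADM by -0.23 (adjusted p = 0.000123), and ECI2 had a value of -0.16 (adjusted p = 0.151). The response was less negative in R8 for 11 of 16 genes by the test of the difference and more negative for 0, against 56.5% of all genes called in either direction.

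Most genes of the peroxisomal list, the pathway that CROT serves, also fell in MB468. Of 9 tested genes 8 fell and 0 rose at 12 h (median -0.65), against 34.7% of all genes called lower, among them the fatty acyl transporter ABCD3 (-1.13, adjusted p = 7.22e-22) and the branched-chain oxidase ACOX3 (-0.98, adjusted p = 3.08e-14). The study listed ABCD3 and ACOX3 as lower in MB468 at 12 h from these same libraries. In R8, 7 fell and 1 rose (median -0.25), against 31.1% of all genes called lower, and with spike-in totals 2 fell and 1 rose. ABCD3 changed by -0.13 in R8 (adjusted p = 0.0233), with a difference of 1.0 (adjusted p = 3.89e-15). ACOX3 changed by -0.62 in R8 (adjusted p = 2.87e-08), with a smaller difference of 0.36 (adjusted p = 0.00746).

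**Figure D5:**
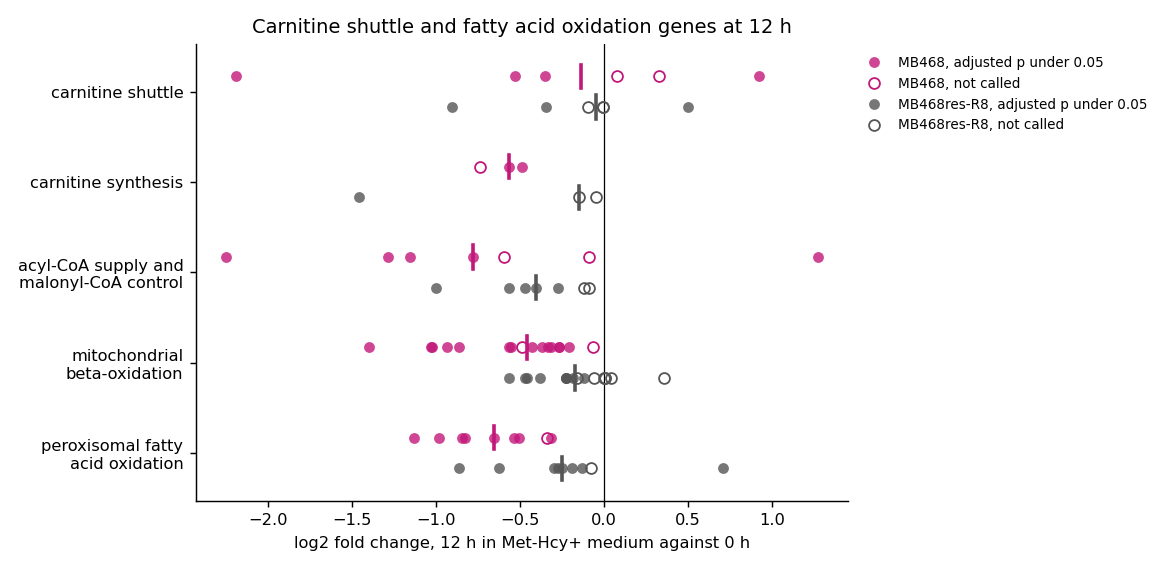
log2 fold change at 12 h against 0 h (horizontal axis) of the tested genes of 5 lists in MB468 and R8. Each circle is a gene, filled when called at an adjusted p under 0.05, and the vertical bars are list medians. In MB468 the 14 called mitochondrial and 8 called peroxisomal genes all lie left of 0, while the shuttle genes lie on both sides.

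Upstream of the shuttle, acyl-CoA synthetases make the substrate of CPT1A, and ACACA, ACACB, and MLYCD set the malonyl-CoA that inhibits it. Of 7 tested genes of this list, 4 fell and 1 rose in MB468 at 12 h, and 5 fell and 0 rose in R8. Called in either direction were 5 of 7 in each line, close to the 70.8% of all genes in MB468 and 61.3% in R8, and the medians were -0.78 and -0.40. ACSL1, a long-chain acyl-CoA synthetase, went from 9677 to 2027 normalized counts in MB468 (log2 fold change -2.25, adjusted p = 6.6e-36) and from 10520 to 5256 in R8 (-1.0, adjusted p = 2.4e-24). ACSL4, which favours arachidonate, changed by -1.29 (adjusted p = 8.63e-21) and -0.40 (adjusted p = 5.69e-07). MLYCD, which breaks down malonyl-CoA, rose in MB468 from 146 to 359 (1.28, adjusted p = 2.59e-14) and fell in R8 from 251 to 207 (-0.27, adjusted p = 0.0209). Its difference between the lines was -1.55 (adjusted p = 5.87e-12). The study listed the MLYCD rise in MB468 at 12 h from these same libraries. MLYCD thus moved in the direction of SLC22A5 in MB468 and against CPT1A.

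Carnitine synthesis was represented by 3 tested genes. TMLHE, the first enzyme of the path, fell in MB468 at 12 h by 0.57 on the log2 scale (adjusted p = 8.3e-08), and ALDH9A1, the third step, fell by 0.49 (adjusted p = 9.54e-12). BBOX1, the last step, ran from 12.2 to 44.6 normalized counts in group means at 0 and 12 h and was not called in MB468 (-0.74, adjusted p = 0.0752). In R8, TMLHE changed by -0.15 (adjusted p = 0.0948), ALDH9A1 by -0.05 (adjusted p = 0.374), and BBOX1 by -1.46 (adjusted p = 0.000285). All 3 were called higher in R8 than in MB468 at 0 h, where 53.5% of all genes were called in either direction, and 1 was with spike-in totals.

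Of 8 shuttle paralogs and other carnitine transporters, 4 passed the filter on low counts. The CPT1 paralogs CPT1B and CPT1C did not exceed a group mean of 9.69 normalized counts at 0 and 12 h and were not tested. SLC6A14, a transporter of amino acids and carnitine, was the 1 of these 4 called in MB468 at 12 h, against 70.8% of all genes, from 1211 to 459 (log2 fold change -1.41, adjusted p = 5.23e-22). It changed by -1.59 in R8 (adjusted p = 2.97e-21), and the test of the difference gave -0.18 (adjusted p = 0.114). Earlier, SLC6A14 was called higher at 2 h in MB468 (0.66, adjusted p = 2.62e-11) and in R8 (0.60, adjusted p = 4.19e-09). At 0.5 h it was called lower in MB468 (-0.26, adjusted p = 0.00082) and in R8 (-0.33, adjusted p = 9.2e-05).

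Among 10 tested PPAR regulators and targets, which include known regulators of CPT1A, 4 rose and 2 fell in MB468 at 12 h, and 3 rose and 5 fell in R8. These 6 and 8 of 10 stood beside 70.8% and 61.3% of all genes called in either direction. With spike-in totals 1 rose and 3 fell in MB468 and 2 rose and 3 fell in R8. PPARGC1A, the coactivator PGC-1 alpha, was at 71.5 ± 12.6 normalized counts (SD, n = 3) in MB468 at 0 h and at 0.436 ± 0.755 in R8, and was 0 in all R8 libraries at 2 and 12 h. It rose in MB468 to 177 ± 3.30 at 12 h (log2 fold change 1.29, adjusted p = 3.89e-08). PPARD rose by 0.51 (adjusted p = 6.83e-09) and PPARA by 0.48 (adjusted p = 8.52e-09) in MB468, and in R8 PPARD fell by 0.50 (adjusted p = 6.23e-08) and PPARA by 0.20 (adjusted p = 0.00844). The tests of the difference gave -1.0 for PPARD (adjusted p = 7.36e-12) and -0.68 for PPARA (adjusted p = 3.1e-08). For PPARGC1A the difference was not called (-3.2, SE 1.7, adjusted p = 0.168), and its R8 counts were too near 0 to show a response.

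The genes whose log2 levels over the 24 libraries were most like each shuttle gene are given as a description, among 11866 genes. The libraries share lines, times, and depth, and the correlations carry no test. For CRAT they were FADS2, a fatty acid desaturase (Pearson r = 0.992), NFASC (0.988), and MRC2 (0.985). FADS2 stood at 569 ± 20.0 normalized counts (SD, n = 3) in MB468 at 0 h, 137 ± 9.97 at 12 h, and 95.4 ± 10.3 and 52.6 ± 11.6 in R8, the same order of groups as CRAT at these times. For CPT1A they were TFRC (0.951), EWSR1 (0.942), and ACOT9 (0.941), for SLC25A20 HMGN3 (0.948), NDUFB4 (0.94), and UBL5 (0.936), and for SLC22A5 PPP4R3A (0.904), ZNF501 (0.9), and TOPORS (0.892). CPT2 and CROT were followed less closely, with at most 0.838 (PITPNA-AS1) and 0.723 (GEMIN2). Among the shuttle genes, CPT1A and CRAT correlated at 0.971 over the 12 MB468 libraries and at -0.46 over the 12 R8 libraries, and CPT1A and SLC22A5 at -0.886 and 0.639. In MB468 the 3 libraries at 12 h lay outside the range of the other 9 for each of these 3 genes.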

How the data were processed

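RNA-seq of 24 libraries was analysed, 3 for each line and time. The authors aligned single-end reads of poly(A) RNA to GRCh38/hg38 and spike-in sequences with HISAT2 (2.1.0 in the submitters' processing notes) and deposited raw counts per gene from featureCounts (Subread 1.5.3), with no normalization. The annotation and strand setting of the counting are not given in the sources used here, and the unstranded kit leaves reads of overlapping opposite-strand genes unresolved. The authors' normalized table and their table of DESeq2 fold changes and p-values were not used. All 24 count columns were matched to samples by name.

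The counts, without the 92 spike-ins (0.201 to 0.303% of each library), went into edgeR 4.0.16 (R 4.3.3). Its filterByExpr function (at least 10 counts in enough libraries and 15 in total) left 14741 genes. Libraries were scaled by TMM, and contrasts came from robust quasi-likelihood fits of 1 mean per group, adjusted by Benjamini-Hochberg over all genes. Normalized counts are counts over the effective library size times the mean of that size. DESeq2 1.42.0 and the other alternatives are in the closing section. The code was tested on simulated data. Positions and transcript lengths are from GENCODE on GRCh38, promoters and neighbouring genes from RefSeq.

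The genes and lists were chosen with earlier results of these data known. Named were the 6 shuttle genes, up to 3 genes per list with the largest called change in MB468 at 12 h, the 3 genes most like each shuttle gene, and at most 2 neighbours of CRAT. The values of 1 gene of the peroxisomal list are not reported here. BBOX1, CPT1B, CPT1C, and the overlapping genes C1orf123 and PPP2R4 were named beyond this rule after their values were seen. List counts under the alternatives were also added after the data were seen.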

Additional observations from a re-analysis of the deposited data

Results flagged for a closer look

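Of the 6 shuttle genes, 5 responded differently in R8 and MB468 at 12 h by a test of the difference itself, where 56.5% of all tested genes did. The R8 response minus the MB468 response was -1.015 on the log2 scale for SLC22A5, 1.288 for CRAT, 0.523 for CPT1A, -0.4282 for CPT2, and 0.3428 for SLC25A20 (adjusted p = 2.49e-09, 9.56e-08, 2.22e-09, 1.22e-05, and 0.00733 in edgeR). SLC22A5, CPT1A, and SLC25A20 changed in MB468 and were not called in R8, CPT2 changed in R8 and was not called in MB468, and CRAT fell in both lines. The CRAT difference includes the 0 h values that were known when CRAT was singled out. The values of single libraries were not tested for outliers within their groups of 3.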

How the results depend on the processing

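Of the 78 values for the 6 members (6 genes in 13 comparisons), 30 were called, and 419 of 450 recomputations of these kept direction and call, 28 kept direction and lost the call, and 3 changed direction. Of 749 recomputations of values not called, 20 became called in the same direction and 1 in the opposite one. The called values include CRAT between the lines at 0 h, which is given above as a description with no test. Counts of called members between the lines at 0 h also include it. The largest departures came with spike-in totals as library sizes, which moved the median log2 difference of all genes to -0.311 for the lines at 0 h, to -0.204, -0.415, and -0.229 for MB468 at 0.5, 2, and 12 h, and to 0.203 for the 12 h difference in response. The 3 changes of direction were CPT1A (-0.169) and SLC25A20 (-0.0495) between the lines at 0 h and SLC22A5 (-0.0417) in MB468 at 2 h, where SLC25A20, not called otherwise, became lower (-0.359, adjusted p = 0.0228). With that scaling the count of called members was 4 in MB468 at 2 h, all lower (SLC25A20 and CRAT, -0.467, CPT1A, -0.419, and CPT2, -0.567), 1 between the lines at 0, 0.5, and 2 h, 0 in either line at 0.5 h, and 1 for the 2 h difference in response (CRAT), and in R8 at 12 h the counts of called mitochondrial and peroxisomal genes went to 4 and 3. For R8 at 0.5 h the count was 2, SLC22A5 being added, with DESeq2's size factors, DESeq2's test, a spike-in covariate, or at least 10 counts in every library. For MB468 at 0.5 h it was 0 at an adjusted p of 0.01 or with the replicate block and 2 with at least 10 counts in every library, CPT1A being added (-0.11), and between the lines at 0.5 h it was 1 at an adjusted p of 0.01. Counts of called members at 12 h stayed within 1.5 times in all alternatives run.

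Leaving out each library in turn gave 2 to 4 called members between the lines at 0 h (2 without MB468 replicate 3), 1 to 2 at 0.5 h (1 without MB468 replicate 1), 0 to 2 in MB468 at 0.5 h (0 without MB468 replicate 1 at 0 h or replicate 1 or 2 at 0.5 h), 1 to 3 in R8 at 0.5 h (3 without R8 replicate 2 at 0 h, 2 without replicate 1 or 3), and 0 to 1 for the 0.5 h difference in response (1 without R8 replicate 3 at 0 h). The counts between the lines at 0 h include CRAT, which was singled out with its 0 h value known. The labels do not say whether replicate numbers mark a shared day or batch. Deviations of same-numbered libraries correlated at -0.0199 on average and of others at 0.0105, over 6391 genes. Single same-numbered pairs of the groups compared ran from -0.387 (R8 at 12 and 0 h) to 0.466 (R8 at 2 and 0 h). As a block, the number took away the CROT call in MB468 at 0.5 h (log2 fold change 0.556, adjusted p = 0.0525). Of 1278 list counts recomputed, 1165 stayed within 1.5 times. Depth limits CROT most, which had 31 reads at the lowest, in MB468 at 2 h replicate 2.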
